A study of Mus musculus with 8 samples.

Results

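The potassium channel genes described here are the measured genes whose platform symbol begins with Kcn, apart from 2 symbols set aside by the rule, Kcne2 and a non-coding transcript that overlaps a channel gene. They comprised 88 probe sets of the 22206 on the array, 1 for each of 88 genes. The rule goes by name and uses no measured value, but it was chosen with earlier results of these data known. They fell into 11 groups by symbol: Kv1, Kv2, Kv3, Kv4, Kv7, the electrically silent Kv subunits, the EAG, ERG and ELK channels, the calcium- and sodium-activated channels with their beta subunits, the inward rectifiers, the tandem-pore (K2P) channels, and a group of auxiliary and regulatory subunits.

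RNA was measured on 1-colour Affymetrix arrays in brain tissue of male mice aged 12 weeks. The 4 groups were hippocampus after clothianidin, hippocampus after vehicle, cerebral cortex after clothianidin and cerebral cortex after vehicle, with 2 arrays in each. Clothianidin is a neonicotinoid insecticide that acts on nicotinic acetylcholine receptors, and the dose was 50 mg/kg/day for 2 weeks, which the submitters call a no observed adverse effect level. Control mice received the vehicle with 1% DMSO, and the strain is not stated in the sources used here. Arrays are named by the number in their labels, which was 3 or 6 for exposed and 1 or 6 for control samples in both tissues. Whether each array of a group represents its own animal is not stated in the labels. The p-values therefore reflect the spread among these arrays alone, and that spread may be technical.

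Potassium channels let potassium leave or enter cells and so set the resting potential, shape the action potential and limit repetitive firing. Voltage-gated (Kv) channels open on depolarisation, inward rectifiers and K2P channels hold the resting potential, and calcium- and sodium-activated channels respond to ions that enter during firing. Pore subunits assemble with auxiliary proteins that change their gating, traffic or placement on axons and dendrites.

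The labelled tissues carried their defining markers. All 6 probe sets of the hippocampal neuron list (among them Prox1 and Spink8) passed the test as higher in hippocampus, with a median log2 difference of 4.80. In the cortical neuron list 5 of 6 probe sets passed as lower in hippocampus, with a median of -1.99, while 3 of 6 interneuron markers were lower and 1 was higher. Array medians differed by tissue, at 5.21 to 5.25 in cortex and 5.37 to 5.40 in hippocampus. The 2 arrays of each group correlated across probe sets with r between 0.9867 and 0.9915. With 2 arrays per group the precision is limited. The choroid plexus list stood apart in hippocampus control 1, where its 10 measured genes averaged 10.24, and to a lesser degree in cortex control 6, where they averaged 5.69. In the other 6 arrays that average lay between 3.88 and 4.98. The average in cortex control 6 rested mostly on Ttr, at 15.41 there and 4.17 in cortex control 1. Clic6, Kl and Folr1 were higher there to a smaller extent. Aqp1, Slc4a5, Calml4 and Sostdc1 lay within the range of the other cortical arrays.

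Of the 88 genes, 68 passed a filter that left out the lowest 33.3% of probe sets by their mean over all arrays, and only these were tested. The last genes to pass were Kcna5 (mean 4.10), Kcnh4 (4.14) and Kcne1l (4.17), and the first to miss the limit of 3.938 were Kcnj5 (3.77), Kcnrg (3.71) and Kcna7 (3.64). The other 17 that were not tested were Kcna10, Kcne1, Kcne3, Kcne4, Kcng2, Kcng4, Kcnh6, Kcnh8, Kcnj1, Kcnj15, Kcnk16, Kcnk18, Kcnk5, Kcnk7, Kcnn4, Kcnq1 and Kcnv2. Single-array log2 values of these 20 genes ran from 1.94 to 4.45. Kcnh4 in hippocampus, and Kcna5 and Kcne1l in cortex, had a mean under the limit, and nothing shows that those low levels exceed background.

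The first comparison set hippocampus against cortex with both arms together, 4 arrays against 4, tested with limma and Benjamini-Hochberg adjustment over 14804 probe sets. Potassium channel genes differed between the tissues often, and mostly by being lower in hippocampus: 40 of 68 (58.8%) passed the adjusted threshold of 0.05, with 11 higher and 29 lower. Over all probe sets tested, 31.3% passed, 19.5% as higher and 11.9% as lower. Leaving out Kcna5, Kcne1l and Kcnh4, which passed the filter through 1 tissue, a count added after the data were seen, left 38 of 65, with 10 higher and 28 lower. The median log2 difference of the 68 genes was -0.36, against 0.11 over all probe sets. Quantile normalization moved the median of all probe sets to 0.01 and changed the sign of 0 of the 68 differences. After it 10 of the 68 genes passed as higher and 33 as lower. The 4 hippocampus and 4 cortex arrays did not overlap for 41 of the 68 genes, 13 higher and 28 lower, against 30.5% of all probe sets (19% higher and 11.5% lower). In bulk tissue, fewer cells of a type and less RNA per cell cannot be told apart, and the part of the neuronal markers given above in these differences was not tested.

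**Figure D1:**
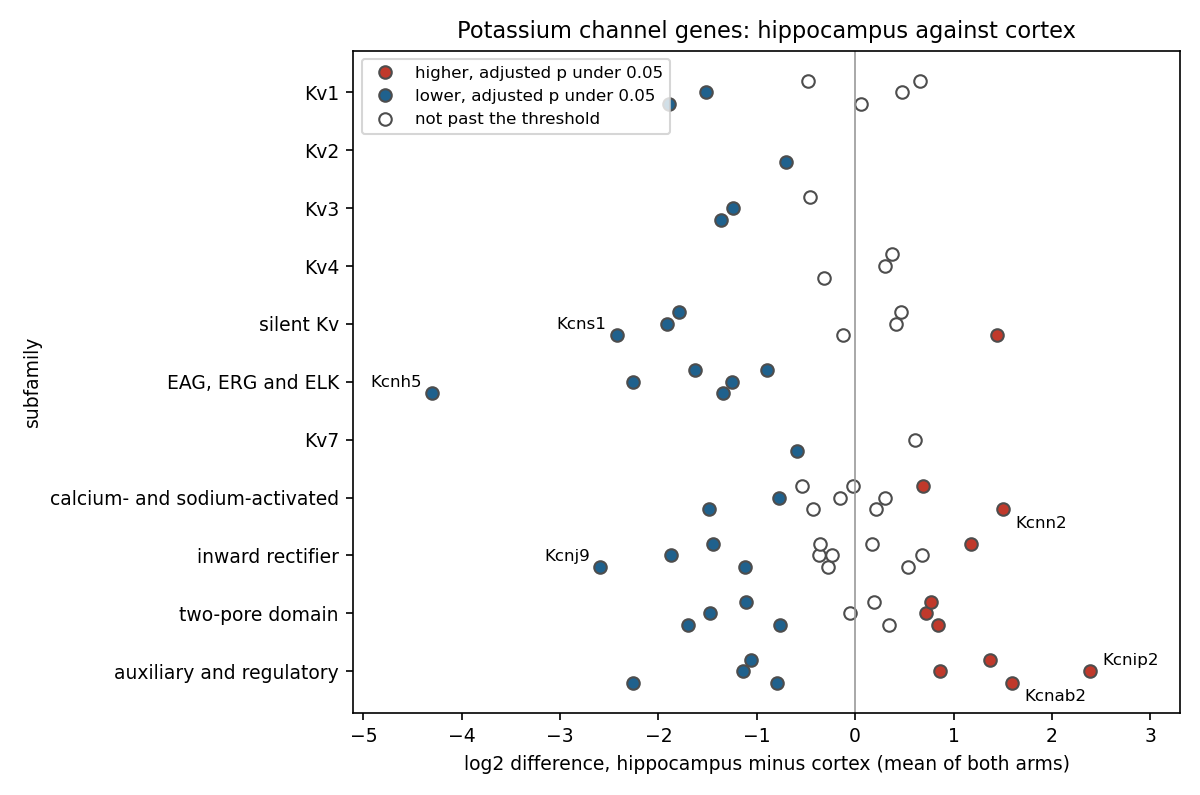
Log2 difference between hippocampus and cortex (x axis, mean of both arms) for the 68 tested potassium channel genes, 1 point per gene, by subfamily (y axis). Filled points passed an adjusted p of 0.05 as higher (red, 11 genes) or lower (blue, 29 genes) in hippocampus; all 6 tested EAG, ERG and ELK genes lie left of 0.

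The EAG, ERG and ELK channels, encoded by Kcnh genes, are voltage-gated channels, several of which act at subthreshold potentials. All 6 tested members passed as lower in hippocampus, with a median log2 difference of -1.49. Without Kcnh4, whose hippocampal mean is under the filter limit, 5 of 5 did, with a median of -1.63. Kcnh5, which encodes EAG2, had log2 values of 7.78 and 8.01 in exposed hippocampus and 7.14 and 7.02 in control hippocampus, against 11.67 and 12.21 in exposed cortex and 11.80 and 11.47 in control cortex. Every hippocampal array lay below every cortical one. Its mean was 7.49 ± 0.48 in hippocampus and 11.79 ± 0.31 in cortex (SD, n = 4 each), a 19.7-fold lower level and the largest tissue difference among the tested potassium channel genes (log2 difference -4.30, SE 0.19, limma adjusted p = 2.88e-08). Kcnh1, which encodes the related EAG1, was 4.77-fold lower, with values of 8.11 to 9.04 in hippocampus and 10.80 to 11.04 in cortex (-2.26, SE 0.20, adjusted p = 5.7e-06).

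The ERG channel genes Kcnh7 and Kcnh2 and the ELK channel gene Kcnh3 were lower as well. Kcnh7 had a log2 difference of -1.63 (SE 0.20), Kcnh2 of -1.34 (SE 0.22) and Kcnh3 of -0.89 (SE 0.21), with adjusted p of 8.69e-05 to 0.00625. The ELK channel gene Kcnh4 passed too (adjusted p = 0.00124), at 3.21 to 3.72 in hippocampus and 4.27 to 5.20 in cortex, but its hippocampal level is not shown to exceed background, so no fold is given. The ELK gene Kcnh8 and the ERG gene Kcnh6, picked out here after their values were seen, did not pass the filter, and in a fit without it neither was lower. Kcnh8 was higher in hippocampus by 1.33 (SE 0.26, adjusted p = 0.00261), at single-array values of 2.13 to 4.24, and Kcnh6 differed by 0.12 (SE 0.16, adjusted p = 0.615). Without the filter 41 of 88 genes passed, 12 higher and 29 lower, against 24.7% of all 22206 probe sets.

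For the genes with the largest lower and the most precise higher difference, Kcnh5 and Kcnab2, and for Kcnj13, which is far higher in 1 array than in the rest, the 250 bases before an annotated start are shown from RefSeq (build GRCm38.p6). CG dinucleotides are in capitals, and each window is on the minus strand, at chr12:75177333-75177582 for Kcnh5, chr4:152477550-152477799 for Kcnab2 and chr1:87394730-87394979 for Kcnj13.
Kcnh5: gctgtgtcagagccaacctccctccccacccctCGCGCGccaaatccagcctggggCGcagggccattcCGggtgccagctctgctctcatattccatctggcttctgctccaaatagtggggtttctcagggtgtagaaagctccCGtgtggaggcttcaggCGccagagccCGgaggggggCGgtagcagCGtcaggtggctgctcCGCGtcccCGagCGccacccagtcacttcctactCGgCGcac
Kcnab2: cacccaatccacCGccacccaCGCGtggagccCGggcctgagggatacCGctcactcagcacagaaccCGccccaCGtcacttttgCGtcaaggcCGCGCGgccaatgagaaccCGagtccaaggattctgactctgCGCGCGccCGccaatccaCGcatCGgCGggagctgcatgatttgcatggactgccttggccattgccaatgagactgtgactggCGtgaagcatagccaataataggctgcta
Kcnj13: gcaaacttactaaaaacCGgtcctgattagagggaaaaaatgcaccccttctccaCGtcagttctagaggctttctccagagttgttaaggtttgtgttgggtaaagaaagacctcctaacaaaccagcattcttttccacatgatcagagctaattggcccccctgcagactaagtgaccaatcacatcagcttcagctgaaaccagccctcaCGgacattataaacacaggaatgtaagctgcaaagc
The Kcnh5 window holds 16 CG dinucleotides and the Kcnj13 window 3. Kcnab2 has 3 windows in the table, of which the one farthest upstream is shown. It holds 20, and the others hold 3 and 5. RefSeq windows were found for 67 of the 88 genes, 91 in all, with a median of 7 CG dinucleotides, against 6 over all 32851 windows of this length. The letters TATAAA, searched on both strands, were found in the Kcnj13 window, starting at base 222 on the gene's strand. They occur in 3.3% of the 91 windows and in 12.4% of all windows. A match of letters is a description and not a binding site.

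Among the Kv1 channels, which open at low voltage and are dense on axons, 2 of 6 tested members passed, both lower in hippocampus. Kcna2 measured 9.14 and 9.13 in exposed and 9.32 and 9.01 in control hippocampus, against 10.99 and 10.77 in exposed and 11.56 and 10.84 in control cortex, and was 3.71-fold lower (-1.89, SE 0.20, adjusted p = 2.3e-05). Kcna3 was 2.85-fold lower, at 6.32 to 6.87 in hippocampus and 8.14 to 8.21 in cortex (-1.51, SE 0.20). Kcna1, whose protein assembles with that of Kcna2 in many axons, did not pass, and its difference of 0.06 had a 95% interval of -0.33 to 0.44. The interval of Kcna1 and that of Kcna2 (-2.32 to -1.46) did not overlap.

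Their cytoplasmic beta subunits went both ways. Kcnab2 measured 16.67 and 16.53 in exposed and 16.70 and 16.59 in control hippocampus, against 14.65 and 14.96 in exposed and 15.27 and 15.25 in control cortex. It was 3.01-fold higher in hippocampus (1.59, SE 0.14, adjusted p = 5.12e-06). Kcnab1 was 1.82-fold higher (0.86, SE 0.16), while Kcnab3 was 4.78-fold lower, at 4.98 to 5.46 in hippocampus and 7.17 to 8.37 in cortex (-2.26, SE 0.26). Of other Kv1 partners, the secreted protein gene Lgi1 was higher (1.23, SE 0.14, adjusted p = 4.34e-05). The scaffold gene Dlg1 (-1.44, SE 0.17, adjusted p = 5.08e-05) and the axonal adhesion gene Cntn2 (-0.93, SE 0.20, adjusted p = 0.00454) were lower.

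The Kv4 channels carry the A-type current of dendrites and depend on KChIP and DPP partners. None of the 3 Kv4 pore genes passed: Kcnd2 differed by 0.31 (95% interval -0.03 to 0.65), Kcnd3 by 0.37 (-0.14 to 0.88) and Kcnd1 by -0.31 (-0.89 to 0.26). The partner genes differed more. Kcnip2 (KChIP2) measured 14.36 and 13.56 in exposed and 14.46 and 14.21 in control hippocampus, against 11.58 and 11.25 in exposed and 12.55 and 11.66 in control cortex. All hippocampal arrays lay above all cortical ones, with a mean of 14.15 ± 0.41 in hippocampus and 11.76 ± 0.56 in cortex (SD, n = 4 each). It was 5.23-fold higher, the largest higher difference among the tested potassium channel genes (2.39, SE 0.23, adjusted p = 1.29e-05).

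The other KChIP genes passed in the opposite direction. Kcnip1 differed by -1.14 (SE 0.22), Kcnip3 differed by -1.06 (SE 0.22) and Kcnip4 by -0.80 (SE 0.18), with adjusted p of 0.00185 to 0.00519. The arrays of Kcnip3 overlapped between tissues, at 14.00 to 14.91 in hippocampus and 14.84 to 15.97 in cortex. The DPP genes split too. Dpp10 measured 9.64 and 9.26 in exposed and 8.19 and 8.66 in control hippocampus, against 12.14 to 12.66 over the 4 cortical arrays, a log2 difference of -3.41 (SE 0.19, adjusted p = 1.47e-07). Dpp6 was higher in hippocampus, at 14.99 to 15.61 against 13.59 to 14.00 in cortex (1.54, SE 0.17, adjusted p = 4.06e-05).

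Kv2 and Kv3 channels serve repolarisation, Kv3 in fast-spiking neurons in particular. The single Kv2 gene measured, Kcnb2, was 1.62-fold lower in hippocampus (-0.70, SE 0.18, adjusted p = 0.0121). Of the Kv3 genes, Kcnc1 was 2.36-fold lower, at 11.13 to 11.84 in hippocampus and 12.47 to 12.94 in cortex, and Kcnc4 was 2.57-fold lower. Kcnc2 did not pass (-0.46, SE 0.19, adjusted p = 0.0795). The calcium-binding protein gene Pvalb, a marker of fast-spiking interneurons, measured 9.31 and 8.46 in exposed and 8.79 and 7.72 in control hippocampus, against 9.80 to 10.42 in cortex. Pvalb is 1 of the 6 interneuron markers, of which 3 passed as lower and 1 as higher in hippocampus, with a median of -0.955. The part of Pvalb or of this list in the Kv3 differences was not tested.

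The electrically silent Kv subunits form no channel alone and modify Kv2 channels. In this group 1 of 7 tested members passed as higher and 3 as lower. Kcns1 was 5.36-fold lower, at 5.20 and 4.20 in exposed and 4.81 and 4.58 in control hippocampus, against 6.91 and 7.32 in exposed and 7.15 and 7.10 in control cortex (-2.42, SE 0.25, adjusted p = 1.87e-05). Kcnv1 (-1.91, SE 0.18) and Kcnf1 (-1.80, SE 0.19) were lower without overlap. Kcng1 was 2.72-fold higher, at 8.20 to 8.77 in hippocampus and 6.88 to 7.17 in cortex (1.45, SE 0.18, adjusted p = 0.000103). The Kv7 channels carry the M-current, which restrains repetitive firing. Kcnq5 was lower by a difference of -0.59 (SE 0.16, adjusted p = 0.0141), and Kcnq3 differed by 0.61 (SE 0.22) with an adjusted p of 0.0546.

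The calcium-activated SK channels follow bursts of firing with a slow hyperpolarisation. Kcnn2 (SK2) measured 11.48 and 11.91 in exposed and 11.67 and 12.03 in control hippocampus, against 10.36 and 10.59 in exposed and 9.96 and 10.16 in control cortex. It was 2.84-fold higher in hippocampus (1.505, SE 0.18, adjusted p = 6.12e-05). Kcnn1 (-0.43, 95% interval -0.87 to 0.01) and Kcnn3 (0.30, interval -0.23 to 0.84) did not pass. Both sodium-activated channel genes were lower, Kcnt1 by 2.80-fold (-1.49, SE 0.23) and Kcnt2 by 1.71-fold (-0.78, SE 0.18).

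Among auxiliary genes of the BK channel, a large-conductance calcium-activated channel, Kcnmb1 passed as higher (0.69, SE 0.22, adjusted p = 0.0357), with overlapping arrays. Kcnmb1 did not pass after quantile normalization. Lrrc55, which encodes a gamma subunit of the BK channel, was lower at -1.91 (SE 0.19, adjusted p = 1.65e-05). Kcnmb2, Kcnmb3 and Kcnmb4 did not pass. Neither did Kcnu1, a BK-related gene known mainly from sperm.

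Of the inward rectifiers, 1 of 12 tested genes passed as higher and 4 as lower. The GIRK channels, opened by G proteins, are assembled from the products of Kcnj3, Kcnj6 and Kcnj9 in these tissues. Kcnj9 (GIRK3) measured 5.50 and 5.54 in exposed and 6.36 and 4.89 in control hippocampus, against 7.31 and 8.51 in exposed and 9.12 and 7.71 in control cortex, and was 6.02-fold lower (-2.59, SE 0.39, adjusted p = 0.000358). Kcnj6 (GIRK2) was 2.26-fold higher, at 10.27 and 11.39 in exposed and 10.49 and 10.68 in control hippocampus, against 9.75 and 9.67 in exposed and 9.45 and 9.25 in control cortex (1.18, SE 0.23, adjusted p = 0.00237). Kcnj3 (GIRK1) did not pass (-0.36, 95% interval -0.78 to 0.06). The intervals of the 3 GIRK genes did not overlap for Kcnj6 (0.68 to 1.68) and either of the others, nor for Kcnj9 (-3.44 to -1.75) and Kcnj3. The G protein subunit gene Gng2 was higher in hippocampus (1.49, SE 0.18, adjusted p = 6.15e-05).

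Kcnj11, the pore of the ATP-sensitive channel, was 3.65-fold lower, at 5.08 to 5.50 in hippocampus and 6.98 to 7.38 in cortex (-1.87, SE 0.20, adjusted p = 2.9e-05). The classical inward rectifier genes Kcnj4 (-1.45, SE 0.19) and Kcnj12 (-1.12, SE 0.26) were lower, whereas Kcnj2, of the same class, did not pass (-0.37, interval -0.91 to 0.17). The glial genes Kcnj10 and Kcnj16 did not pass, with differences of -0.28 (interval -0.65 to 0.09) and 0.17 (interval -0.32 to 0.66). Of 6 astrocyte markers 3 passed as higher in hippocampus (Gfap 2.72, Gja1 1.35 and Aqp4 1.24) and 1 as lower, with a median of 0.84, and their part in these values was not tested.

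K2P channels are leak channels, and within both the TREK and the TASK branch members passed in opposite directions. In the mechano-gated TREK branch, Kcnk4 (TRAAK) was 3.25-fold lower, at 6.24 to 7.07 in hippocampus and 8.12 to 8.74 in cortex (-1.70, SE 0.23, adjusted p = 0.000181). Kcnk10 (TREK2) was 1.70-fold higher (0.77, SE 0.20, adjusted p = 0.0119), and Kcnk2 (TREK1) did not pass (0.20, interval -0.21 to 0.60). In the acid-sensitive TASK branch, Kcnk9 (-1.48, SE 0.19) and Kcnk3 (-1.11, SE 0.26) were lower, while Kcnk15 was higher (0.73, SE 0.20, adjusted p = 0.0168). Kcnk6 was higher by 0.84 (SE 0.20, adjusted p = 0.00827) and Kcnk1 differed by -0.77 (SE 0.17). Some higher calls rested on single arrays: Kcnk10 did not pass without cortex control 1 (adjusted p = 0.0594), and Kcnk15 did not pass without cortex control 6 (0.072) or without cortex exposed 3 (0.0536), nor with both choroid-plexus-high arrays left out (0.124). Kcnk6 did not pass with those same 2 arrays left out (0.0552).

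Of the 38 partner genes listed outside the Kcn family, 35 were measured and 32 tested, with 6 higher (18.8%) and 8 lower (25%), against 19.5% and 11.9% of all probe sets. Among the 4 partner genes with the largest higher differences in hippocampus, the trimeric cation channel gene Tmem38b had the smallest (0.71, SE 0.20, adjusted p = 0.0182). It did not pass without cortex control 1 (0.0814), cortex exposed 6 (0.0562) or hippocampus control 6 (0.0512), nor after quantile normalization (0.0594). The small auxiliary gene Kcne1l passed as higher in hippocampus (adjusted p = 0.00105), at 4.44 to 5.34 in hippocampus and 3.45 to 3.55 in cortex. The cortical level is under the filter limit, so no fold is given.

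**Figure D2:**
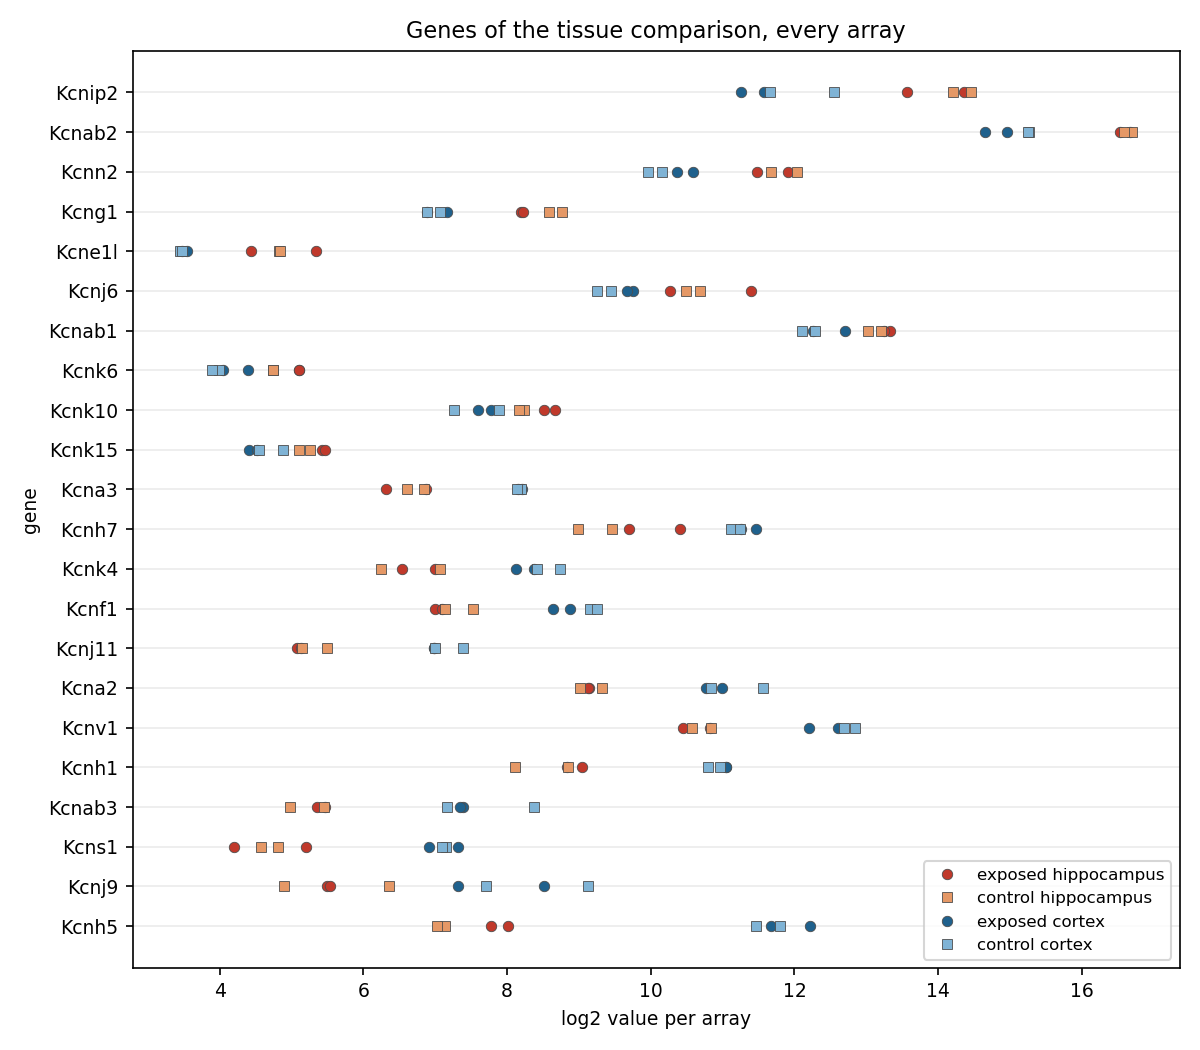
Log2 value of every array (x axis) for 22 genes named in the tissue comparison (y axis), with 2 points per gene for each of exposed hippocampus (red circles), control hippocampus (orange squares), exposed cortex (dark blue circles) and control cortex (light blue squares). Some points hide others of nearly the same value. For Kcnh5 the 4 hippocampal arrays reach at most 8.01 and the 4 cortical arrays are at least 11.47, and for Kcnip2 the hippocampal arrays are the higher ones.

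The tissue difference was then taken within each arm. Among exposed arrays 29 of 68 genes passed, 9 higher and 20 lower. Over all probe sets 14.5% passed there, 9.25% as higher and 5.22% as lower. Among control arrays 36 passed, 8 higher and 28 lower, against 17.7%, 10.1% and 7.63% of all probe sets. The 2 arms had 26 calls in common with the same sign, 89.7% of the exposed and 72.2% of the control calls, and 0 with opposite signs. Over all probe sets these shares were 72.6% and 59.4%. The difference in Kcnh5 was -4.04 in exposed and -4.55 in control arrays, and that in Kcnip2 was 2.54 in exposed and 2.23 in control arrays. The counts rest on few arrays. Among exposed arrays 16 genes passed without cortex exposed 6, and 16 without hippocampus exposed 6. Among control arrays 19 passed without cortex control 1 and 23 without cortex control 6, and 21 passed without cortex control 6 and hippocampus control 1 together.

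The second question was whether clothianidin changed these genes. In exposed hippocampus 0 of 68 genes passed the adjusted threshold against control hippocampus (background 0.00675%, 1 probe set). In exposed cortex 0 of 68 passed as well, against the same background. At an unadjusted p under 0.05, 7 genes (10.3%) stood out in hippocampus, against 5.81% of all probe sets. Of these 6 had higher values after exposure (8.82%), against 3.33% of all probe sets. In cortex 5 genes (7.35%) did, against 6.18%. The genes below are given as values that did not pass.

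Kcnh5, Kcnb2 and Kcnh7 had the smallest p of the 68 genes in hippocampus. Kcnh5 measured 7.78 and 8.01 in exposed and 7.14 and 7.02 in control hippocampus, a difference of 0.815 (SE 0.27, 95% interval 0.23 to 1.40, adjusted p = 0.769). Kcnh7, the ERG3 gene, measured 9.69 and 10.41 in exposed and 8.99 and 9.46 in control hippocampus (0.825, SE 0.29, adjusted p = 0.809), and its difference was 0.465 without hippocampus exposed 6. Kcnb2 measured 8.47 and 8.34 in exposed and 7.79 and 7.52 in control hippocampus (0.75, SE 0.26, adjusted p = 0.809). For each of the 3, both exposed arrays lay above both control arrays. Of the 6 tested Kcnh genes 5 had higher values after exposure, 4 of them without overlap, and their median difference was 0.47, against 0.005 over all probe sets. Without Kcnh4 these were 4 of 5, 3 without overlap, with a median of 0.485. Of all 14804 probe sets tested, 7513 had higher values in exposed hippocampus, and 16.7% were higher without overlap. Other groups had many higher values in exposed hippocampus too. Of the 10 tested K2P genes 7 were higher, 6 without overlap, and 3 lower, 1 without overlap (median 0.228). Of the 3 Kv3 genes 2 were higher without overlap and 1 was lower (median 0.40), while 5 of 7 silent Kv genes were lower. In cortex 5 of the 6 Kcnh genes were also higher after exposure, 3 without overlap. Their median there was 0.185, against -0.025 over all probe sets. None of the Kcnh genes passed for exposure.

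Without overlap between the arms, 18 of the 68 genes were higher and 6 lower in exposed hippocampus, against 16.7% and 14% of all probe sets, or 30.7% in all. The inward rectifier gene Kcnj4 measured 7.08 and 6.72 in exposed and 6.16 and 6.39 in control hippocampus (0.625, SE 0.27). The Kv3 gene Kcnc1 measured 11.60 and 11.84 in exposed and 11.26 and 11.13 in control hippocampus (0.525, SE 0.24). Kcnmb1, a BK beta subunit best known from smooth muscle, was the single gene of the 7 with lower values, at 5.48 and 5.79 in exposed and 6.28 and 6.70 in control hippocampus (-0.855, SE 0.32). Kcnn3 (SK3) measured 6.29 and 6.24 in exposed and 5.99 and 4.99 in control hippocampus (0.775, SE 0.35), and its difference was 0.28 without hippocampus control 6. Adjusted p of these 4 lay between 0.823 and 0.85.

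Marker lists are given beside these values. The cortical neuron list, 6 of 6 probe sets tested, averaged 10.07 and 9.52 in exposed and 9.54 and 9.47 in control hippocampus, with a median difference of 0.39. The interneuron list, 6 of 6 tested, averaged 10.19 and 9.82 in exposed and 9.99 and 9.30 in control hippocampus, with a median of 0.39 as well. Every probe set of both lists passed the filter on low values, and for both the exposed and control averages overlapped. The median difference was 0.43 for the endothelial list, -0.38 for the meningeal, -0.95 for the ependymal and -2.9 for the choroid plexus list. For the last, exposed hippocampus averaged 4.56 and 4.83 and control hippocampus 10.24 and 4.98. The partner gene Dpp10, lower in hippocampus like Kcnh5, had an exposure difference of 1.03 (SE 0.27, adjusted p = 0.769). The other partner genes that passed as lower in hippocampus had smaller exposure differences there. These were -0.04 for Hcn2, -0.005 for Dlg1, 0.06 for Rgs7, 0.145 for Abcc8, 0.21 for Amigo1, 0.405 for Lrrc55 and 0.535 for Cntn2. The median of the 32 tested partners was 0.138. The part of the marker lists in the values of Kcnh5, Kcnh7, Kcnb2, Kcnj4 and Kcnc1 was not tested.

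In cortex Kcnj16, a glial inward rectifier that pairs with the product of Kcnj10, measured 8.05 and 8.69 in exposed and 9.73 and 9.08 in control arrays (-1.035, SE 0.32, 95% interval -1.73 to -0.34, adjusted p = 0.74). The exposed arrays were both lower than either control array, and in hippocampus the difference was -0.35 (SE 0.32). Kcnj10 itself differed by -0.005 in cortex (interval -0.53 to 0.52). The acid-sensitive leak channel gene Kcnk9 measured 9.05 and 9.60 in exposed and 8.44 and 8.54 in control cortex (0.835, SE 0.27, adjusted p = 0.74).

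The silent subunit gene Kcns2 measured 5.93 and 6.96 in exposed and 5.53 and 5.61 in control cortex (0.875, SE 0.36), and its difference was 0.36 without cortex exposed 6. Kcnn1 measured 7.67 and 7.50 in exposed and 8.47 and 8.0 in control cortex (-0.65, SE 0.29), and differed by -0.415 without cortex control 1. Kcnab2 measured 14.65 and 14.96 in exposed and 15.27 and 15.25 in control cortex (-0.455, SE 0.19), and differed by -0.3 without cortex exposed 3. Adjusted p of these 3 lay between 0.788 and 0.801. In cortex 14 genes were higher and 21 lower without overlap, against 17.1% and 21.4% of all probe sets, or 38.5% in all.

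**Figure D3:**
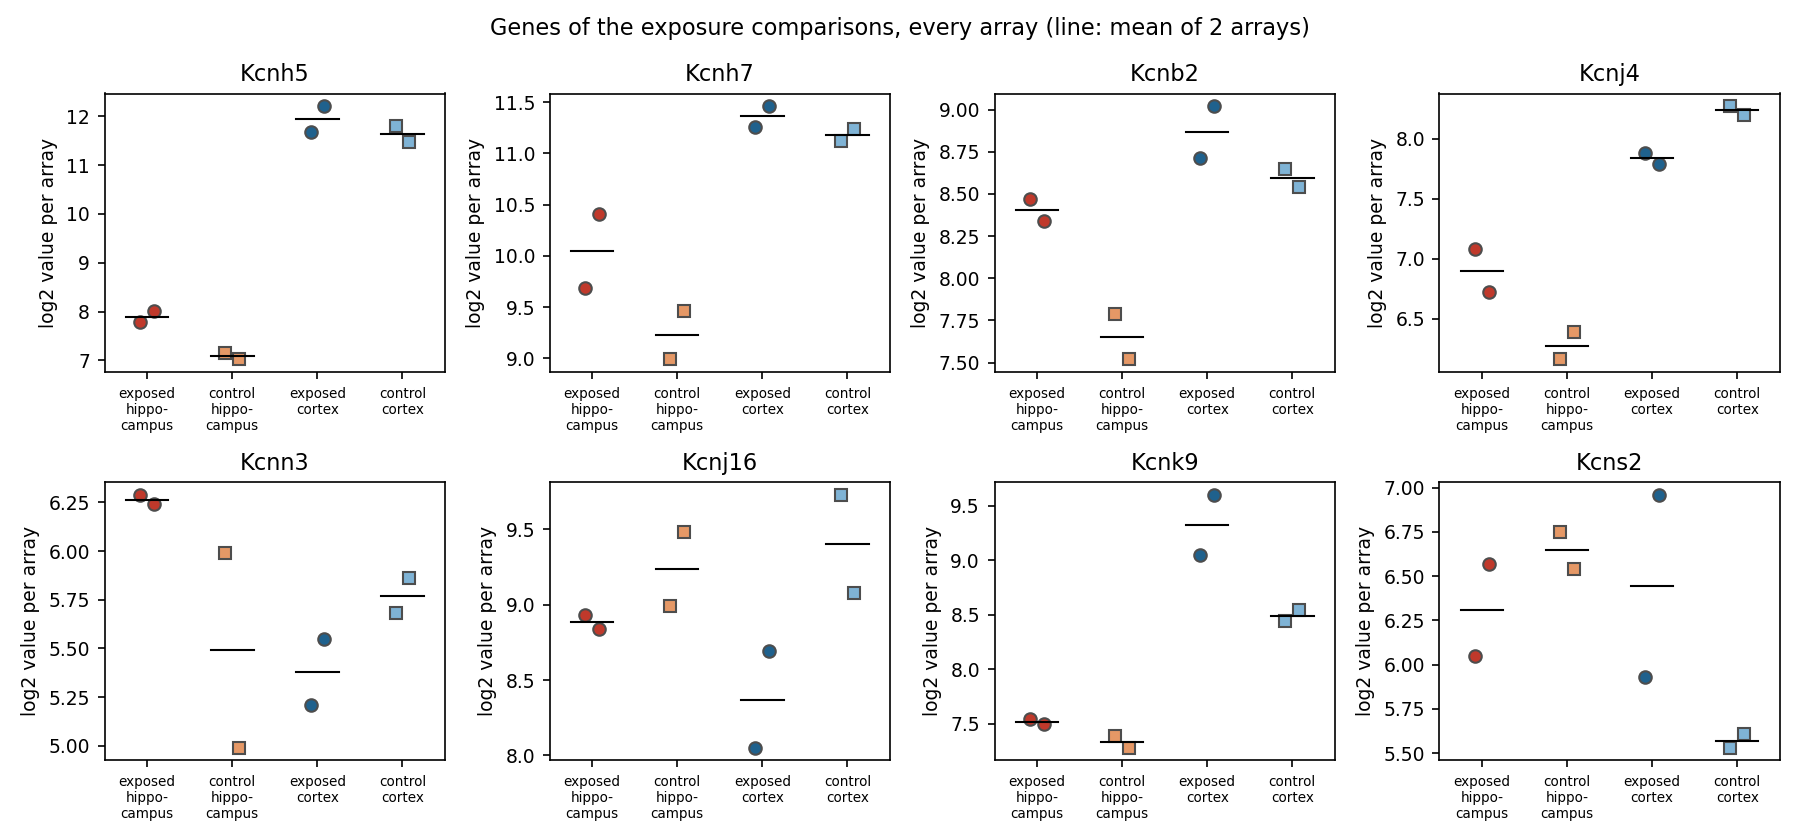
Log2 value of every array (y axis) for 8 genes named in the exposure comparisons, by group (x axis), with 2 arrays per group and a line at their mean. Kcnh5, Kcnh7, Kcnb2 and Kcnj4 have both exposed hippocampal arrays above both control ones, and none of the 8 passed the adjusted threshold for exposure.

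For groups with no gene named so far in a tissue, the largest exposure difference is given. In hippocampus these were 0.535 for Kcnq3 (Kv7), 0.47 for Kcnk12 (K2P), -0.47 for Kcng1 (silent), 0.415 for Kcna1 (Kv1), -0.375 for Kcnip2 (auxiliary) and -0.255 for Kcnd1 (Kv4). In cortex they were 0.5 for Kcnh4 (EAG, ERG and ELK), -0.48 for Kcna6 (Kv1), -0.40 for Kcnd1 (Kv4), 0.34 for Kcnc4 (Kv3), 0.27 for Kcnb2 (Kv2) and -0.125 for Kcnq5 (Kv7). None passed, and several rest on 1 array. With single arrays left out, the hippocampal difference ran from 0.04 to 1.03 for Kcnq3, from 0.255 to 0.575 for Kcna1, and across 0 for Kcnip2 (-0.775 to 0.025) and Kcnd1 (-0.75 to 0.24). Likewise the cortical difference ran from 0.255 to 0.745 for Kcnh4, -0.72 to -0.24 for Kcna6, -0.66 to -0.14 for Kcnd1, 0.115 to 0.425 for Kcnb2 and -0.215 to -0.035 for Kcnq5. The dendritic A-type gene Kcnd2 differed by 0.06 in hippocampus (95% interval -0.42 to 0.53) and 0.21 in cortex (-0.27 to 0.69). Of the 32 tested partner genes 0 passed in either tissue.

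Whether exposure differed between the tissues was tested as an interaction, hippocampus minus cortex. It passed for 0 of 68 genes (background 0%), and 3 (4.41%) had an unadjusted p under 0.05, against 3.45% of all probe sets. Kcnj4 had an exposure difference of 0.625 in hippocampus and -0.40 in cortex (interaction 1.02, SE 0.38). Kcnn3 had 0.775 in hippocampus and -0.39 in cortex (1.17, SE 0.49), and Kcns2 had -0.335 in hippocampus and 0.875 in cortex (-1.21, SE 0.50). All 3 had an adjusted p of 0.998. With single arrays left out, the interaction ran from 0.665 to 1.665 for Kcnn3 and from -1.725 to -0.695 for Kcns2.

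**Figure D4:**
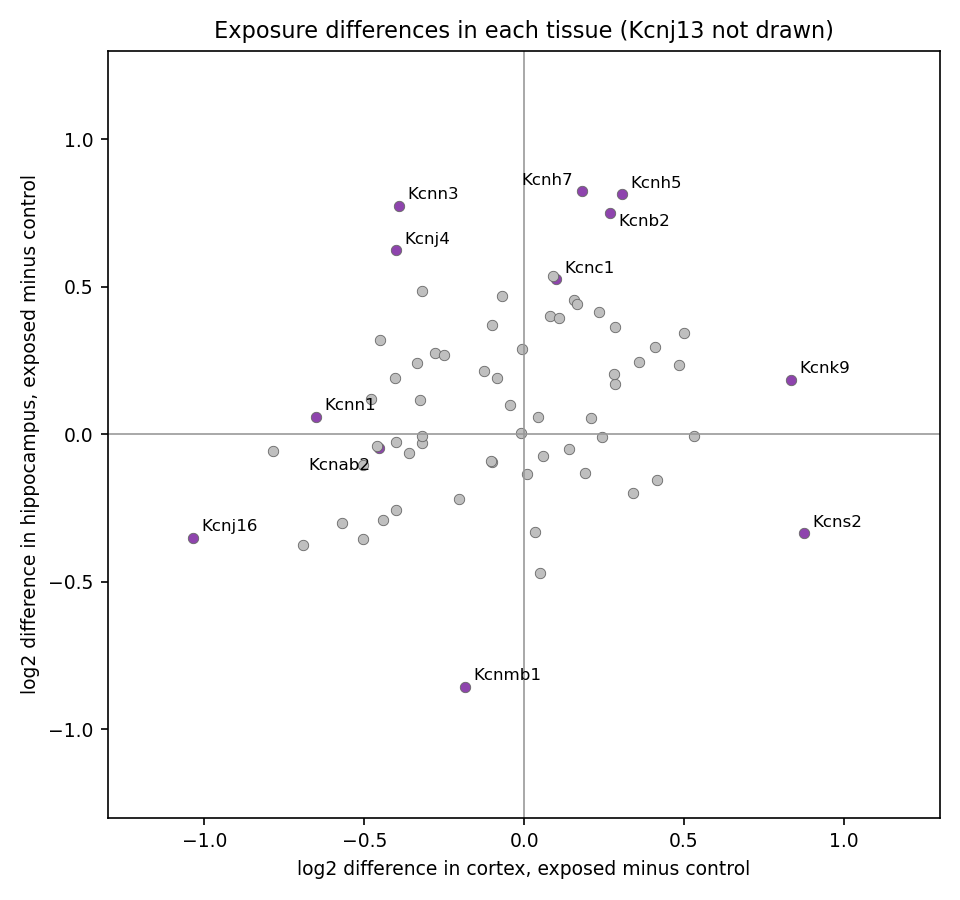
Log2 exposure difference in cortex (x axis) and in hippocampus (y axis) for each tested potassium channel gene except Kcnj13, which lies outside the axes at -0.435 and -3.44. Purple points had an unadjusted p under 0.05 in 1 of the tissues; Kcnj4 and Kcnn3 lie at upper left, and Kcns2 at lower right.

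Averaged over both tissues, with 2 means per arm, 0 of 68 genes passed (background 0.00675%), and 6 (8.82%) had an unadjusted p under 0.05, against 5.97% of all probe sets. These used the same arrays as the comparisons above and are given beside them only. The differences were 0.56 for Kcnh5, 0.51 for Kcnb2 and for Kcnk9, -0.69 for Kcnj16, -0.52 for Kcnmb1 and -1.94 for Kcnj13, with adjusted p of 0.811 to 0.826.

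Kcnj13 encodes an inward rectifier known from epithelia such as the choroid plexus. It measured 5.90 and 5.16 in exposed and 13.44 and 4.50 in control hippocampus, and 6.79 and 5.91 in exposed and 5.35 and 8.22 in control cortex. One array, hippocampus control 1, was far above the rest, and cortex control 6 was the next highest. The choroid plexus marker Ttr, which encodes transthyretin, measured 7.27 and 6.39 in exposed and 19.51 and 7.76 in control hippocampus, and 5.73 and 4.68 in exposed and 4.17 and 15.41 in control cortex. The same 2 arrays were highest for both genes. The exposure difference of Kcnj13 in hippocampus was -3.44 (SE 1.95, adjusted p = 0.901). It was 1.03 without hippocampus control 1 and -7.91 without hippocampus control 6 (adjusted p = 0.000519), so both its sign and its call turned on which control array was kept. The averaged difference of -1.94 passed without control 6 (-3.46, adjusted p = 1.05e-05).

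**Figure D5:**
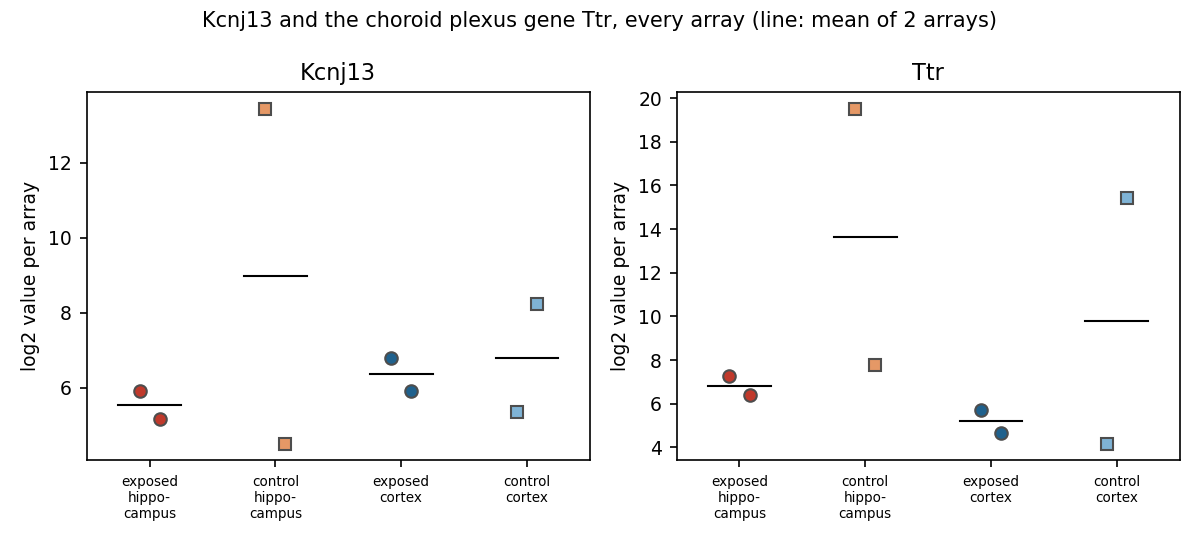
Log2 value of every array (y axis) for Kcnj13 (left) and the choroid plexus marker Ttr (right), by group (x axis), with 2 arrays per group and a line at their mean. Hippocampus control 1 is highest for both genes, at 13.44 for Kcnj13 and 19.51 for Ttr, followed by cortex control 6 at 8.22 and 15.41.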

How the data were processed

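The values are those the authors deposited in their series table, log2 intensities per probe set. RMA is the tool given in the submitters' processing notes. The RMA version, its summary level and joint normalization of the arrays are not stated in those notes. No header names the log base, and log2 is inferred from what RMA usually gives and from values of 1.59 to 19.93. Per the labels' protocols, 250 ng of RNA with an integrity number above 7 was amplified and labelled per sample. Scanner files and detection values were not used here. Symbols came from GEO's platform annotation, and all 88 matched the RefSeq table of GRCm38.p6 by Entrez identifier.

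With limma 3.58.1 in R 4.3.3, a linear model with the 4 group means was fitted to the 8 arrays with lmFit, and eBayes used a trend of variance on mean level (residual degrees of freedom 4, prior 7.918). Exposure averaged over tissues was fitted to the mean of both tissues for each arm and number, a precaution in case such arrays came from 1 animal, with single arrays as an alternative. Tests were two-sided, adjusted by Benjamini-Hochberg within each of 7 comparisons over 14804 probe sets. Intervals cover 95% under the moderated fit, and folds are given as the larger level over the smaller. Levels were not compared between probe sets. The fits were tested on simulated data.

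The members, subfamilies and gene lists were chosen with earlier results of these data known. Named are the genes passing the tissue test without overlap of arrays (at most 12 per direction), those with an unadjusted p under 0.05 for exposure, the largest exposure difference of any other subfamily, Kcnj13, and the 4 largest partner differences per direction. Further members, and Dpp10 and Pvalb beside some results, are given to complete a subfamily and were picked with their values in view. Alternatives were no filter or the lowest 50% left out, quantile normalization, no variance trend, array weights, a block by arm and number, leaving out arrays, and single arrays in place of averages. Arrays of an arm and number deviated from their group means with r of 0.276 between tissues for exposed and -0.000881 for control arrays. Both arrays of a group deviate from its mean equally and in opposite directions, so r is the same for either number of an arm. These values therefore cannot decide whether such arrays came from the same animal. The numbers were used as a block only as an alternative, so any such pairing is left out of the main tissue test.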

Additional observations from a re-analysis of the deposited data

Results flagged for a closer look

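For 4 genes both exposed arrays lay on one side of both control arrays in hippocampus and on the other side in cortex. The share of all probe sets with this pattern was not counted, so the 4 genes are not shown to exceed it. Without overlap, 16.7% of all probe sets were higher and 14% lower after exposure in hippocampus. In cortex these shares were 17.1% and 21.4%. The difference between tissues was tested for each of the 4 genes and did not pass, with a limma adjusted p of 0.998 for each. The interaction (exposure in hippocampus minus exposure in cortex, log2) was 1.17 for the SK3 channel gene Kcnn3, 1.02 for the inward rectifier gene Kcnj4, 0.77 for the TREK1 gene Kcnk2 and 0.52 for Kcnk15. Kcnk2 measured 9.04 and 8.73 in exposed and 8.68 and 8.45 in control hippocampus, and 8.47 and 8.14 in exposed and 8.87 and 8.64 in control cortex.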

How the results depend on the processing

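The count of 40 potassium channel genes passing in the tissue comparison ran from 34 to 44 over 15 alternatives, and was 38 without the 3 genes that have a tissue mean under the filter limit, a choice made after seeing the data. Leaving out 1 array at a time gave 37 to 42, cortex control 6 and hippocampus control 1 together left 34, and the replicate block by arm and number gave 44. The count within control arrays, 36, was 21 without those 2 arrays, 39 with the block and 19 to 36 over single arrays left out. The count within exposed arrays, 29, was 34 with the block and 16 to 32 over single arrays. Exposure in cortex gave 0 calls under every alternative run. Exposure in hippocampus, the interaction and the average over tissues gave 0 to 1 when single arrays or numbers were left out, and 0 otherwise (interaction with the block, 0). Of 892 values of named genes, 876 kept their sign and their side of the threshold, 9 lost a call, 2 gained one (both Kcnj13) and 5 changed sign. The changes of sign were all in hippocampal exposure: Kcnd1 at 0.24 and Kcnj13 at 1.03, each without hippocampus control 1 and with both arrays left out, and Kcnip2 at 0.025 without hippocampus exposed 6. Over single arrays left out, their hippocampal differences ran from -0.75 to 0.24, from -7.91 to 1.03 and from -0.775 to 0.025. Each such fit has fewer arrays; the cause was not tested further. When 1 array is left, it is assumed to vary like the other groups. The average without the 2 arrays was not run, since each control number would keep 1 tissue only. The block changed no call of a named gene. With no detection values, levels near the filter limit cannot be set against background.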
